A study of Homo sapiens with 13 samples.

Results

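The variants described here lie in 2 regions, a gene desert beside SOX9 and the TBX1 locus, named after genes of skeletal and craniofacial patterning factors. They were the allele pairs whose deposited name placed them on chromosome 17 in a window of the gene desert between KCNJ2 and SOX9, where they ran from position 69154363 to 69239935, or on chromosome 22, in all cases at the TBX1 locus (hg19). Of the 4468 allele pairs of the library, 31 met this rule, 9 in the SOX9 desert and 22 at TBX1. They stood for 3 positions and 12 elements on chromosome 17 and for 8 positions and 30 elements on chromosome 22, since the alternative alleles of a position were set against one shared reference element. At 10 of these 11 positions all other bases were tested, and at position 19762428 of chromosome 22 the alternative was an insertion of TT. The rule uses names and positions and no measured value, but it was set with earlier results of these data known. The loci are named from general knowledge of hg19.

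SOX9 is a transcription factor that cartilage formation requires, and it is controlled in part by enhancers far away in the gene deserts beside it. KCNJ2, at the other end of the desert, encodes a potassium channel. In RefSeq's gene list for GRCh38.p14, 15 genes start between KCNJ2 and SOX9, and 0 of them are protein-coding. TBX1 is a T-box transcription factor of the pharyngeal arches and their derivatives, and its loss accounts for much of the heart and face phenotype of DiGeorge syndrome, in which scoliosis is frequent. Its protein-coding neighbours in the same list are GP1BB, a platelet receptor subunit gene, and GNB1L, which encodes a G protein beta subunit-like protein.

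The study asked whether scoliosis-associated alleles differ in regulatory activity in chondrocyte lines. Lentiviral reporter libraries were brought into TC28a2, an immortalized human chondrocyte line, and SW1353, a human chondrosarcoma line, for 48 hours. DNA and RNA were then isolated together. The content of the libraries differed, with 7236 elements counted in TC28a2 and 9769 in SW1353. A difference between lines is therefore also one between libraries, and the part of library content was not tested. A tested sequence is placed before a reporter whose transcript carries a barcode, and the RNA made per DNA copy is read as its activity. The groups were DNA and RNA of each line with 3 replicates each, 12 libraries in all, and both lines carried the same variant elements with no further treatment. Both are single lines grown in culture, and the labels do not say whether replicates were separate infections.

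Summed over the deposited barcode positions, library totals were 5523658 to 5738307 counts for DNA and 22048832 to 22212124 for RNA in TC28a2, and 15582658 to 15626361 and 37571404 to 37631975 in SW1353. The files stop at barcode position 500, so these are not full depths. Activity is given below as log2 RNA over DNA minus the line's median over 191 scrambled controls, so that 0 is the level of scrambled sequence. An element is called active when it lay above that median with an edgeR adjusted p under 0.05. The test takes the median as fixed and leaves out the spread of the scrambled controls. Of the 191 controls, 57 in TC28a2 and 63 in SW1353 had an unadjusted edgeR p under 0.05 against it, in either direction. The quartiles of the controls were -0.23 and 0.24 in TC28a2 and -0.32 and 0.26 in SW1353. The names of the scrambled controls span 200 bp, whereas the length of the variant elements is not in their names, and 0 scrambled controls covered a position described here.

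The barcode coverage of the loci differed. The 12 elements of the SOX9 desert were covered in TC28a2 by 78 to 185 barcodes in the DNA and 110 to 235 in the RNA of a replicate, and by 69 to 173 and 49 to 105 in SW1353. The 30 TBX1 elements had 257 to 450 and 310 to 469 in TC28a2, and 303 to 438 and 130 to 361 in SW1353. None of the SOX9 elements reached barcode position 500, but all 30 TBX1 elements did so in DNA or RNA of TC28a2 and 25 did in SW1353, where 17 reached it in DNA and not in RNA. Scrambled controls at this limit had a median activity of 0.20 in TC28a2 (32 controls) and 0.43 in SW1353 (24 controls), compared with -0.05 in each line below it. TBX1 calls are also compared per filled barcode position and against the scrambled controls at the limit, 2 scalings that were chosen after seeing the data. Filled RNA positions can rise with RNA output, so dividing by them may remove part of the activity itself. The controls at the limit were likewise picked on DNA or RNA. A call lost under these scalings does not show that an element was inactive.

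Replicates of a group matched only in part in their barcode positions. Over the first 10 barcode positions of the 42 elements, counts at the same position correlated between replicates with r = 0.281 in TC28a2 DNA, 0.369 in TC28a2 RNA and 0.164 in SW1353 DNA, but with r = -0.108 in SW1353 RNA. The SD over replicates and the SE of the fits may include a spread between sets of barcodes, and the p-values measure the spread between these samples, which may be technical.

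In the SOX9 desert, elements mostly stood slightly above the scrambled median in both lines, and few were far enough above it to be called. Median activity of the 12 elements was 0.25 in TC28a2 and 0.42 in SW1353, beside 0.26 and 0.37 for all variant elements. In TC28a2, 0 of 12 elements were called active by edgeR, where 27.1% of all variant elements were. An unadjusted edgeR p under 0.05 was found for 3 of 12, beside 2526 of 5978 variant elements in either direction. DESeq2 and limma each called 1. In SW1353, edgeR called 2 of 12 active, against 37.7% of all variant elements. Elements called below scrambled sequence numbered 0 in both lines, where 2.51% of variant elements in TC28a2 and 1.52% in SW1353 were; DESeq2 and limma also called 0.

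Position 69154363 lies 82635 bp from the next tested position and had the weakest mean activity of the 3 positions in both lines. Its reference element, with C, had log2 activities of -0.07, 0.05 and 0.43 in the replicates of TC28a2 and of 0.52, 0.17 and 0.57 in SW1353. One replicate of TC28a2 stood apart upwards, and the lowest of SW1353 stayed above 0. The fitted activity was 0.14 (SE 0.166, edgeR adjusted p = 0.54) and 0.42 (SE 0.185, edgeR adjusted p = 0.0841), so that the element was not called in either line. Its alternative alleles spanned 0.21 to 0.29 in TC28a2 and -0.04 to 0.31 in SW1353, and none was called.

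Positions 69236998 and 69239935 lie 2937 bp apart. The reference element of the former, with G, had log2 activities of 0.09, 0.01 and 0.48 in TC28a2 and of 0.52, 0.51 and 0.04 in SW1353, with fitted values of 0.19 and 0.36 that were not called (edgeR adjusted p = 0.357 and 0.12). The latter, also with G, had 0.26, 0.40 and 0.48 in TC28a2 and 0.13, 0.74 and 0.38 in SW1353. All 6 values of the latter were above 0, and its fitted activities of 0.38 and 0.42 were not called (edgeR adjusted p = 0.0732 and 0.0928).

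Both active elements of the desert carried T as the alternative allele, and both were called in SW1353 alone of the 2 lines. G69239935T had log2 activities of 0.75, 0.40 and 0.61 there, a 1.51-fold level over scrambled sequence (log2 0.59, SE 0.174, n = 3, edgeR adjusted p = 0.0183). G69236998T had 0.79, 0.35 and 0.37, a 1.42-fold level (log2 0.50, SE 0.187, n = 3, edgeR adjusted p = 0.0476). In TC28a2 the same elements stood at 0.20 and 0.18, and the difference between lines, 0.39 and 0.32, did not pass its test (edgeR adjusted p = 0.423 and 0.593). The SW1353 calls numbered 1 of 12 without replicate 1 or without replicate 2, 0 of 12 without replicate 3, per filled barcode position, or against the median of all elements, and 8 of 12 without the highest barcode of each element and library.

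At the SOX9 positions no substitution had a called allelic effect, which does not show that effects were absent. edgeR called 0 of 9 variants in TC28a2 and 0 of 9 in SW1353, where 0.0227% of all variants were called in each line. An unadjusted edgeR p under 0.05 was found for 0 in either line, against 2.64% of all variants in TC28a2 and 3.27% in SW1353. DESeq2 and limma also called 0. Effects, as log2 of alternative over reference, reached from -0.18 up to 0.25 in TC28a2, and in SW1353 from -0.47 up to 0.18, with standard errors of 0.217 to 0.304 and 0.244 to 0.267. The median size of an effect was 0.11 and 0.15, beside 0.14 and 0.18 over all variants.

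The largest effect in the desert was that of C69154363T in SW1353. The T allele was lower than the reference in each replicate, by log2 differences of -0.69, -0.01 and -0.70, 1 of which was close to 0. The fitted effect was -0.47, a 0.724-fold level (SE 0.255, edgeR adjusted p = 0.991). It ranged from -0.69 to -0.21 over 12 alternatives, with 0 calls. Without replicate 2, which held the value close to 0, its unadjusted edgeR p was 0.0472. In TC28a2 the same replacement gave 0.06, -0.33 and 0.56, values on both sides of 0, with a fitted effect of 0.09 (SE 0.304). One barcode held 31.7% of the RNA count of the T allele in replicate 3 of TC28a2.

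C69154363A had effects of -0.13, -0.19 and -0.16 in SW1353, the same direction in 3 of 3 replicates, and of 0.27, 0.20 and -0.01 in TC28a2. Neither fitted effect, -0.16 and 0.15, was called. G69236998C had the smallest p of the desert in TC28a2, with effects of 0.58, 0.36 and -0.21 and a fitted 0.25 (SE 0.239, edgeR adjusted p = 1.00). G69239935T had effects of 0.62, -0.34 and 0.24 in SW1353 and of -0.06, -0.20 and -0.28 in TC28a2, with fitted values of 0.18 and -0.18. Effects had the same sign in both lines for 4 of 9 variants, beside 2345 of 4393 in the library.

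At the TBX1 locus the picture was more graded. The 8 positions within 12903 bp ran from elements at or below the scrambled level to one that was clearly active in both lines. In TC28a2 edgeR called 8 of 30 elements active and 1 below scrambled sequence, against 27.1% and 2.51% of all variant elements. In SW1353 it called 21 of 30 active and 1 below, against 37.7% and 1.52%. Median activity was 0.23 in TC28a2 and 0.52 in SW1353, beside 0.26 and 0.37 for all variant elements. The TC28a2 count was 5 without replicate 1, 4 without replicate 3 and 14 without the highest barcode of each element and library.

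Variant elements that reached position 500 in DNA or RNA were called more often than variant elements as a whole. Of these, 55.1% of 1156 were active in TC28a2 and 79.9% of 810 in SW1353. So were 34.4% and 58.3% of the scrambled controls at the limit. In TC28a2, 904 of the 1156 variant elements reached position 500 in DNA and 99 in DNA only. In SW1353, 796 of the 810 reached it in DNA and 599 in DNA only. An element that entered through RNA was picked in part on its RNA count, the numerator of activity. The higher share is therefore in part fixed in advance. With scrambled controls at the limit as the reference level, 4 TBX1 elements were active in TC28a2 and 6 in SW1353, and per filled barcode position 6 and 5 were.

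Position 19757572 carried the most active elements of the locus, and its calls held in nearly every alternative. The reference element, with G, had log2 activities of 0.49, 0.67 and 0.62 in the replicates of TC28a2 and of 1.09, 1.08 and 1.28 in SW1353. The lines did not overlap, and every replicate lay above 0. The fitted activity in TC28a2 was 0.59 (1.51-fold, SE 0.0891, n = 3, edgeR adjusted p = 0.000809). It reached 1.15 in SW1353 (2.22-fold, SE 0.0893, n = 3, edgeR adjusted p = 3.15e-06). These rest on 25754 RNA and 5974 DNA counts in TC28a2 and on 29055 and 10473 in SW1353. The element reached position 500 in DNA and RNA of both lines. Scrambled controls at that limit had medians of 0.20 in TC28a2 and 0.43 in SW1353, so its level over them was lower.

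All 3 alternative bases at 19757572 were active too, and none had a called allelic effect. Fitted activities were 0.66 for A, 0.59 for C and 0.64 for T in TC28a2, and 1.17, 1.24 and 1.23 in SW1353, each past the threshold. Allelic effects were -0.00 to 0.07 in TC28a2, and in SW1353 they were 0.02 to 0.09, with standard errors of 0.121 to 0.147. The span between the highest and lowest allele, 0.07 and 0.09, was the smallest of the 7 TBX1 positions with 4 alleles in both lines, and the median span over 1422 such positions of the library was 0.29 and 0.37. The elements were called active in SW1353 under each of 13 alternatives for all 4 alleles. In TC28a2 this held too, except for the C allele against the median of all elements (0.31, edgeR adjusted p = 0.0584). Per filled barcode position the 4 alleles stood at 0.52 to 0.59 in TC28a2 and at 0.32 to 0.42 in SW1353.

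Just 200 bp away, position 19757372 was close to scrambled sequence in TC28a2 and mixed in SW1353. Its reference element, with G, had 0.16, 0.41 and 0.15 in TC28a2 and 0.40, 0.17 and 0.24 in SW1353. All replicates were above 0 but neither fitted value, 0.24 and 0.27, was called (edgeR adjusted p = 0.111 and 0.0758). The A allele stood at 0.80, 0.74 and 0.67 in SW1353, above the 3 reference replicates, and was called active (log2 0.74, SE 0.105, n = 3, edgeR adjusted p = 0.000248). In TC28a2 the A allele was at 0.11, -0.00 and -0.14, around the scrambled level and below the 3 reference replicates.

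The A allele gave the smallest p for a difference of allelic effect between lines at either locus. G19757372A had effects of 0.39, 0.57 and 0.44 in SW1353 and of -0.05, -0.41 and -0.29 in TC28a2, so that the replicates of the lines did not overlap and pointed in opposite directions. The fitted effect was 0.47 in SW1353 (1.38-fold, SE 0.146, edgeR adjusted p = 0.991) and -0.25 in TC28a2 (0.84-fold, SE 0.160, edgeR adjusted p = 1.00). Their difference, 0.72 (SE 0.215), had an unadjusted edgeR p of 0.00305, but it was not called over 4393 variants (edgeR adjusted p = 1.00), and 1.91% of all variants had an unadjusted p under 0.05 in this comparison. In SW1353 the effect ranged from 0.15 to 0.64 over 11 alternatives, with 0 calls (adjusted p from 0.882 to 1.00). The difference between lines ranged from 0.31 to 0.89 over them. Without the highest barcode of each element and library, or without replicate 2, its unadjusted edgeR p was not under 0.05. The same held for the SW1353 effect in these settings.

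The T allele at the same position had 1 replicate far above the others. Its activities in SW1353 were 0.16, 0.41 and 2.06, and 1 barcode held 10168 of 14491 RNA counts, or 70.2%, in replicate 3. The element was called active with all counts (log2 0.86, SE 0.301, n = 3, edgeR adjusted p = 0.0377). Without the highest barcode of each element and library it stood at 0.40 and was still called. It was called in 7 of 13 alternatives, and not without replicate 3 (0.32, edgeR adjusted p = 0.120), by DESeq2 (adjusted p = 0.186), with no replicate block, per filled barcode position (0.40), against the median of all elements or against the scrambled controls at the limit (0.43). The allelic effect of G19757372T, 0.59 with all counts (SE 0.377), was -0.01 without the highest barcode.

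Position 19757339, only 33 bp from 19757372, had the least active elements of the locus in SW1353. If these elements span 200 bp like the scrambled controls, the 2 reference elements share most of their sequence. The reference element of 19757339, with T, had -0.03, 0.11 and -0.23 in TC28a2 and -0.45, -0.22 and 0.08 in SW1353. In SW1353 the reference replicates of 19757372 were all higher than those of 19757339, and in TC28a2 likewise; the pair was picked with its values in view, and the difference was not tested. Neither fitted value of the T element, -0.05 and -0.20, was called.

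The C allele at 19757339 was the only TBX1 element called below scrambled sequence in SW1353. Its replicates were at -0.61, -0.34 and -0.27 (fitted log2 -0.40, SE 0.134, n = 3, edgeR adjusted p = 0.0303), and the call was lost when any 1 replicate was left out and per filled barcode position (-0.25). The G allele had the highest activity at this position in both lines, 0.27 in TC28a2 and 0.13 in SW1353. T19757339G had effects of 0.02, 0.09 and 0.85 in TC28a2 and of 0.64, 0.37 and -0.01 in SW1353, with similar fitted values of 0.32 and 0.33 (edgeR adjusted p = 1.00 and 0.991). By the mean of both lines this position had the widest span between its alleles at TBX1, 0.35 in TC28a2 and 0.54 in SW1353.

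Position 19759437 differed most between the lines. Its reference element, with G, had 0.09, -0.28 and 0.16 in TC28a2, around the scrambled level, and 0.96, 0.60 and 0.28 in SW1353, where it was called active (log2 0.61, SE 0.137, n = 3, edgeR adjusted p = 0.00424). The C allele had -0.10, -0.36 and -0.30 in TC28a2 and 0.90, 0.86 and 0.64 in SW1353. The T allele had -0.60, -0.25 and -0.55 in TC28a2 and 0.58, 0.45 and 0.54 in SW1353. For each of the 4 alleles, the A allele included, every SW1353 replicate lay above every TC28a2 replicate.

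The test of the difference between lines passed for all 3 alternative alleles at 19759437, at 0.75 for A, 1.05 for C and 0.99 for T (edgeR adjusted p = 0.00719, 0.000318 and 0.00083). The reference, at 0.62, did not pass it (edgeR adjusted p = 0.0503). Against the scrambled controls at the limit the reference stood at 0.18 in SW1353 and, of the 4 alleles, C alone kept its SW1353 call (0.37). The 3 differences kept their calls against the scrambled controls at the limit (0.61, 0.91 and 0.84). Per filled barcode position none of the 3 was called, at -0.00, 0.30 and 0.23, and in SW1353 the 4 alleles then lay between -0.30 and -0.02.

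In TC28a2 the T allele at 19759437 was the 1 TBX1 element called below scrambled sequence. It stood at 0.723-fold of that level (log2 -0.47, SE 0.125, n = 3, edgeR adjusted p = 0.0173); without replicate 1 and without replicate 3 the call was lost. G19759437T also had the smallest allelic p of the locus in TC28a2, with effects of -0.69, 0.03 and -0.71, 1 of which was near 0. The fitted effect was -0.46, a 0.729-fold level (SE 0.177, edgeR adjusted p = 1.00). In SW1353 the same replacement gave -0.38, -0.15 and 0.26, values on both sides of 0.

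Positions 19758228 and 19758399, 171 bp apart, had moderate activity. The reference element of 19758399, with T, had 0.17, 0.26 and 0.35 in TC28a2 and 1.20, 0.67 and 0.19 in SW1353, a wide spread in the latter. It was called active in SW1353 (log2 0.69, SE 0.169, n = 3, edgeR adjusted p = 0.00741) and not in TC28a2 (log2 0.26, edgeR adjusted p = 0.0692). Its alternatives were all active in SW1353, at 0.46 to 0.74, and A was also active in TC28a2, at 0.46. At 19758228 the reference, with A, stood at 0.23 in TC28a2 and at 0.52 in SW1353, where it was called; G and T were active in both lines and C in neither. In SW1353, 0 of the 7 active elements of these positions kept the call against the scrambled controls at the limit or per filled barcode position. In TC28a2 the calls of A at 19758399 and of G and T at 19758228 were lost against those controls (0.26, 0.13 and 0.18), and that of G also per filled barcode position (0.26) and with any 1 replicate left out; that of T was lost without replicate 1 or replicate 3 as well, and that of A at 19758399 without replicate 2 or replicate 3.

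Position 19749525, 7814 bp from the next, had the lowest coordinate. Its reference element, with A, had 0.09, 0.25 and 0.32 in TC28a2 and 1.05, 0.58 and 0.48 in SW1353, with all SW1353 replicates above those of TC28a2. It was active in SW1353 (log2 0.70, SE 0.126, n = 3, edgeR adjusted p = 0.00116), and the difference between lines, 0.48, was not called (edgeR adjusted p = 0.0955). All 4 alleles were active in SW1353 and C alone in TC28a2. A19749525G had effects of -0.69, -0.07 and -0.18 in SW1353, lower in 3 of 3 replicates, with a fitted -0.32 (SE 0.173, edgeR adjusted p = 0.991). In SW1353 the 4 alleles lay from -0.25 to 0.20 per filled barcode position and from -0.05 to 0.27 against the scrambled controls at the limit, with 0 calls. The TC28a2 call of C was lost under both scalings (0.32 and 0.19), against the median of all elements, and without replicate 1 or replicate 3.

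The insertion of TT at 19762428 was the 1 length change in the 2 loci. The reference element had 0.24, 0.22 and -0.50 in TC28a2 and -0.12, -0.33 and 1.33 in SW1353, where 1 barcode held 55.7% of the RNA count of replicate 3. The inserted element had -0.32, -0.15 and -0.23 in TC28a2 and -0.03, 0.13 and 0.41 in SW1353. Neither element was called in either line. The effect of the insertion was -0.22 in TC28a2 (SE 0.217, edgeR adjusted p = 1.00) and -0.11 in SW1353 (SE 0.354, edgeR adjusted p = 0.991), and 0.18 in SW1353 without the highest barcode.

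Over the 22 TBX1 variants, edgeR called 0 allelic effects in each line, as did DESeq2 and limma, and 1 in each line, G19759437T in TC28a2 and G19757372A in SW1353, had an unadjusted p under 0.05, against 2.64% of all variants in TC28a2 and 3.27% in SW1353. Effects reached from -0.46 up to 0.32 in TC28a2, and in SW1353 from -0.32 up to 0.59. Standard errors, 0.121 to 0.217 and 0.137 to 0.377, had medians of 0.161 and 0.184, below those of all variants (0.235 and 0.262). The alternative allele was higher for 10 variants in TC28a2 and 11 in SW1353, and the sign was the same in both lines for 9 of 22. The difference of the allelic effect between lines was called for 0 of 22 variants and 0 of 9 in the SOX9 desert by edgeR, DESeq2 and limma, where 0% of all variants were called.

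At TBX1 the SD of the position means was larger than the SD between alleles of a position, and in the SOX9 desert it was smaller. A position mean averages its alleles and so varies less than a single allele does. With 3 positions in the desert, the smaller SD there cannot show that its positions were alike. The SD of the position means was 0.27 in TC28a2 and 0.39 in SW1353 over the 8 TBX1 positions, and the SD between alleles of a position was 0.13 and 0.16. In the desert the values were 0.05 and 0.12 between 3 positions and 0.10 and 0.14 between alleles. Replicates of an element had a root mean square SD of 0.20 and 0.34 at TBX1 and of 0.31 and 0.24 in the desert. That SD is between single replicates, whereas the SD between alleles is between values fitted over all replicates. The replicate SD is therefore not on the same scale as the allele SD, and their sizes cannot be compared directly. These are descriptions, since alleles of a position share their sequence but for the tested base.

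Between the lines, activity was higher in SW1353 for 25 of 30 TBX1 elements and 10 of 12 SOX9 elements, beside 3993 of 5967 in the library. edgeR called 9 TBX1 elements higher in SW1353, at positions 19757572 (4 elements), 19759437 (3), 19757372 (1) and 19758399 (1), and 0 SOX9 elements, where 4.24% of all variant elements were; 0 were called lower in either region, where 0.0168% of all variant elements were. DESeq2 called 11 and 0, and limma 7 and 0; edgeR called 3 TBX1 elements without replicate 1 and 3 without replicate 2. The reference element of 19757572 was higher by 0.56 (1.47-fold, SE 0.125, n = 3, edgeR adjusted p = 0.00745). Per filled barcode position it was lower by -0.20 and 0 TBX1 elements were called. Against the scrambled controls at the limit 4 were, none of them at 19757572. The call of the 19757572 reference was also lost without replicate 1 or without replicate 2. The RNA of 28 TBX1 elements reached position 500 in TC28a2 and that of 8 in SW1353; the part of this in the difference was not tested beyond these scalings. Across the 30 TBX1 elements, which share libraries and, within a position, sequence, activity in the lines had a Pearson r of 0.469 and a Spearman rho of 0.315, and across the 12 SOX9 elements 0.175 and 0.0629.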

How the data were processed

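Reporter barcodes were counted in DNA and RNA of both lines (12 libraries). The authors deposited whole-number counts per element and barcode position, up to position 500; hg19 is named per the submitters' processing notes, and no source used here names the counting tool. The library that pairs barcodes with elements was not analysed here.

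Counts were summed over barcode positions per element, allele and library. Elements needed 10 DNA barcodes in each DNA library, which left out 0 of the elements described. Activity and allelic effects were tested with edgeR 4.0.16 (TMM, quasi-likelihood) in R 4.3.3, with each replicate's DNA and RNA as a block, since the labels' protocols have them isolated together; the difference between lines was an interaction term. Values per replicate used a pseudocount of 0.5. P-values were adjusted by Benjamini-Hochberg over all elements or variants, at a threshold of 0.05. DESeq2 1.42.0, limma 3.58.1 and further settings made 12 alternatives, and 2 more were chosen after seeing the data. The fits were tested on simulated data. Deviations of paired DNA and RNA correlated at -0.014 to 0.030 (r).

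The members and lists were chosen with earlier results of these data known. The rule named, per locus and line, the 3 most and 2 least active reference elements, the 3 variants with the smallest allelic p and any with an unadjusted p under 0.05, insertions, the position with the widest span and the reference element that differed most between lines. Other elements named were chosen after their values were seen.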

Additional observations from a re-analysis of the deposited data

Results flagged for a closer look

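For 9 TBX1 elements the activity differed between the lines by edgeR's test of the difference itself, with SW1353 higher in each. At position 19757572 the log2 difference of SW1353 over TC28a2 was 0.56 for the reference, 0.51 for A, 0.65 for C and 0.59 for T. At position 19759437 it was 0.75 for A, 1.05 for C and 0.99 for T. It was 0.75 for the A allele at 19757372 and 0.53 for the G allele at 19758399. Per filled barcode position 0 of these 9 differences were called. Of 13 alternatives, those at 19759437 were called in 11 for A and 12 each for C and T, that of A at 19757372 in 11, and those at 19757572 in 9 for the reference, 6 for A, 9 for C and 8 for T. The difference of G at 19758399 was called in 4 of 13, and not with limma, a barcode minimum of 50, no replicate block or any 1 replicate left out.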

How the results depend on the processing

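The allelic counts of 0 stayed at 0 under each alternative that gave a value. Active SOX9 elements in TC28a2 (0) numbered 1 with DESeq2, limma, a barcode minimum of 50, no replicate block or counts per filled barcode position, and 5 without the highest barcode. In SW1353 (2) they numbered 3 with DESeq2 or no replicate block, 1 with limma or a minimum of 50, 8 without the highest barcode, 0 against the median of all elements or per barcode position, and 0 to 1 with a replicate left out. Active TBX1 elements in TC28a2 (8) numbered 14 without the highest barcode, 3 against the median of all elements, 4 against scrambled controls at the limit and 4 to 6 with a replicate left out; those below (1) numbered 4, 3 and, per barcode position, 2, and 0 to 1 with a replicate left out. In SW1353 (21) they numbered 5 against the median of all elements, 6 against scrambled controls at the limit, 5 per barcode position, 18 to 20 with a replicate left out, and 2 without elements at the limit; those below (1) numbered 3, 3, 0, 0 to 0 and 0. TBX1 elements higher in SW1353 (9) numbered 4 against scrambled controls at the limit, 0 per barcode position and 3 to 9 with a replicate left out. The causes were not tested. Without elements at the limit, no TBX1 element was left in TC28a2, nor any TBX1 variant.

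Signs turned against the median of all elements for the reference elements of 69236998 (-0.091), 69154363 (-0.15), 19749525 (-0.062), 19758228 (-0.051), 19758399 (-0.023) and 19757372 (-0.044) in TC28a2, and of 69154363 (-0.034), 69239935 (-0.039), 69236998 (-0.098), 19757372 (-0.19) and 19762428 (-0.17) in SW1353. Against scrambled controls at the limit, 19757372 and 19762428 in SW1353 stood at -0.16 and -0.15. Per barcode position, 69236998, 19757372 and 19759437 in SW1353 stood at -0.015, -0.30 and -0.21, and among the differences between lines those of 69154363 and 19757572 at -0.076 and -0.20. Without the highest barcode, G69239935T in SW1353 was at -0.00091 and the insertion at 0.18. With a replicate left out, the range was -0.027 to 0.23 for 69154363, -0.092 to 0.027 for 19757339 and -0.15 to 0.21 for 19762428 in TC28a2, and in SW1353 -0.049 to 0.43 for G69239935T and -0.41 to 0.28 for the insertion.

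The replicate block tied the DNA and RNA of a replicate; with no replicate block the SOX9 count in TC28a2 went from 0 to 1, that in SW1353 from 2 to 3 and that of TBX1 elements higher in SW1353 from 9 to 8. The SOX9 elements have fewer barcodes than those of TBX1, and the limit at position 500 bears on the TBX1 elements. Median standard errors of the allelic effects were 0.238 in TC28a2 and 0.256 in SW1353 for SOX9, and 0.161 and 0.184 for TBX1. In SW1353 the largest standard error was at TBX1 (0.377, against 0.267 for SOX9).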
